A study of Mus musculus with 11 samples.

Results

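The transcripts described here belong to 40 genes of the cell division cycle, 21 that act in G1 and S phase and 19 that act in G2 and M phase. They were chosen by gene symbol, and all 40 were found among the 48709 gene IDs of the count tables. RNA was sequenced from mouse primary hippocampal neurons, cells taken from the hippocampus and cultured for 10 days at 20% oxygen, that were then held at 1% oxygen for 4 h (hypoxia, 5 libraries) or left at 20% oxygen (control, 6 libraries). Per the labels, control cells shared the isolation of the hypoxic cells, and polyadenylated RNA was sequenced as single 50-base reads. Per the sources used here, strain, genotype and age are not given. It is not stated whether libraries of a group are separate dishes or isolations, and p-values therefore reflect spread among libraries, part of which may be technical.

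A dividing cell grows in G1, copies its DNA in S phase, checks the copy in G2 and separates its chromosomes in M phase (mitosis). The D cyclins with Cdk4 and Cdk6, and then the E cyclins with Cdk2, inactivate the retinoblastoma proteins and so free E2F factors, which switch on the genes of DNA replication. Cyclins A and B with Cdk1, together with the Polo and Aurora kinases, then drive mitosis. Mature neurons have left the cycle, whereas glial and progenitor cells of a hippocampal culture can still divide, and D cyclins, Cdk4 and Cdkn1b are also known from cells that do not divide.

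The libraries held 22688096 to 31917157 counts in hypoxia and 16619493 to 31416241 counts in control, and control 1 was the shallowest. The oxygen-responsive mRNAs Adm, Slc2a1 and Ndrg1 followed the labels. Slc2a1, the glucose transporter, averaged 66.7 ± 3.67 CPM (counts per 1e+06 counts of its library, after scaling) in hypoxia and 22.6 ± 5.04 CPM in control (SD, n = 5 and 6). On the second principal component control 1 lay opposite control 5 and hypoxia 5. Leaving out control 1 and hypoxia 5 together, chosen after seeing the data, is reported where it changed a call.

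After 4 h at 1% oxygen, 10 of the 40 cell cycle genes fell and none rose. The genes that fell were Ccnd1, Ccnd2, Ccne2, Cdkn1b and Mcm7 in G1 and S phase, and Ccna2, Cdc20, Bub1b, Plk1 and Birc5 in G2 and M phase. The decreases were small, between 8.45% (Ccnd2) and 32.8% (Plk1). In bulk RNA, fewer cells of a type and less RNA per cell cannot be told apart. A gene was called at an adjusted p under 0.05 in edgeR's quasi-likelihood test with Benjamini-Hochberg adjustment over all 16235 genes tested, and all 40 genes passed the filter on low counts. Of all genes tested, 22.9% were called, 10.1% higher and 12.8% lower, so the 25% of cell cycle genes that fell stood beside 12.8% of all genes. At an unadjusted p under 0.05, 15 cell cycle genes were lower and 0 were higher, beside 3179 and 2476 of all 16235 genes tested. The alternative tools, DESeq2 and limma-voom, also called 0 cell cycle genes higher, whereas the authors' deposited table lists E2f1 as higher.

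The median log2 fold change (hypoxia over control) of the 40 genes was -0.14, against -0.02 for all genes tested. The log2 fold change was negative in 36 of the 40 and positive in 4, beside 8782 and 7453 of all 16235 genes tested. In 5 of the 40, every hypoxia library lay below every control library, and in 0 every one lay above. The shares for all genes tested were 7.26% below and 6.72% above. In G1 and S phase 5 of 21 genes fell (23.8%) at a median log2 fold change of -0.11, and in G2 and M phase 5 of 19 fell (26.3%), with a median of -0.20. The difference between the phases was not tested.

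**Figure D1:**
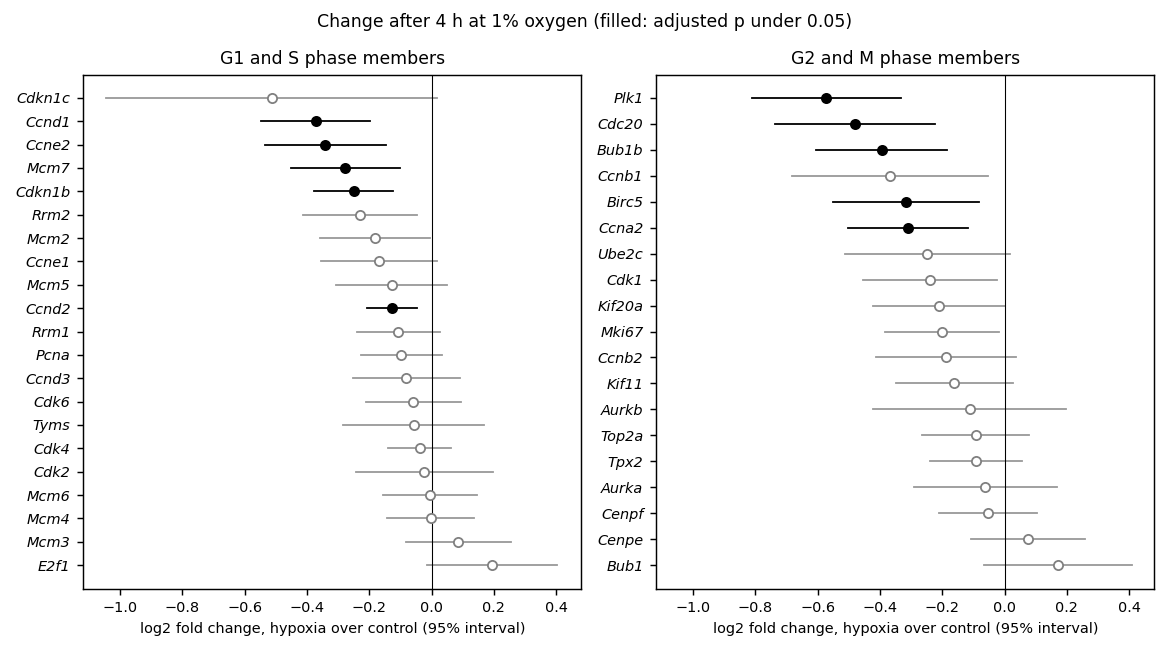
Log2 fold change (hypoxia over control) of each cell cycle gene with its 95% interval, G1 and S phase at left and G2 and M phase at right. Filled points are the 10 genes with an adjusted p under 0.05, all left of 0, and Plk1 at -0.57 is the lowest.

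The genes differed widely in level, which is compared here as CPM per kb of exon so that long transcripts do not count more. Ccnd2, which encodes cyclin D2, was highest, with 43.5 CPM per kb in hypoxia and 47.6 CPM per kb in control. Cdkn1b, the inhibitor p27, followed with 20.9 and Cdk4 with 19.3 CPM per kb in hypoxia, against 24.9 and 19.8 CPM per kb in control. Top2a, the topoisomerase that untangles sister chromatids, had the highest G2 and M phase level, 4.20 CPM per kb in hypoxia and 4.49 CPM per kb in control. The lowest level was that of Cdkn1c, the inhibitor p57, at 0.211 CPM per kb in hypoxia and 0.300 CPM per kb in control. Among G2 and M phase genes Ccnb1, cyclin B1, was lowest, at 0.525 CPM per kb in hypoxia and 0.698 CPM per kb in control.

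**Figure D2:**
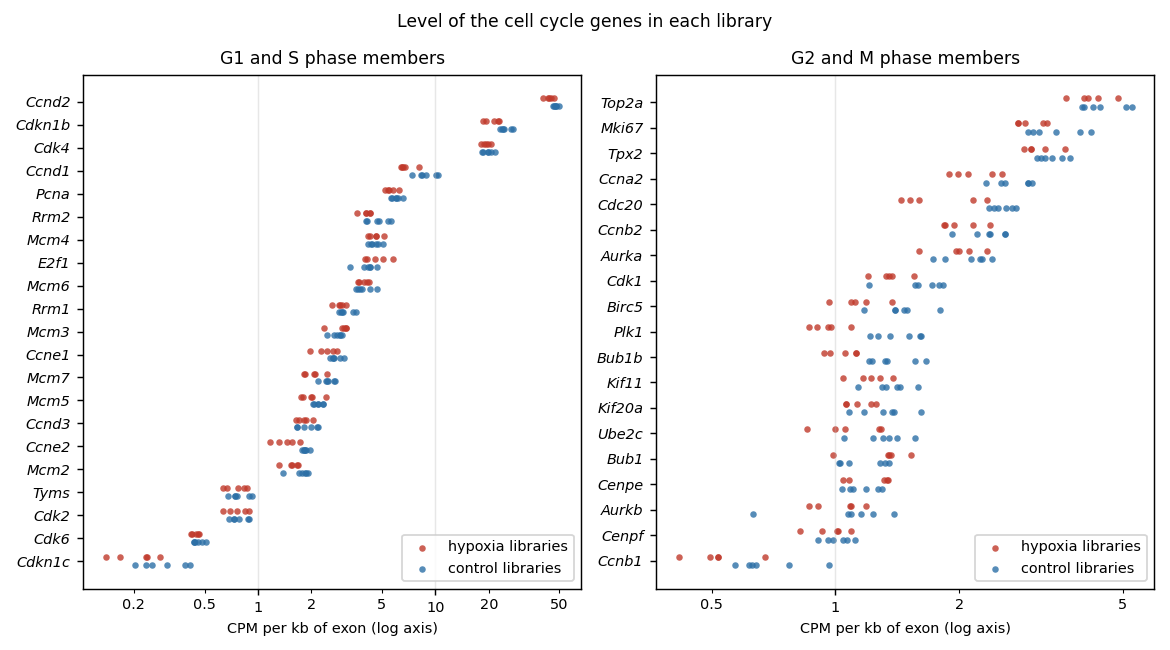
Level of each cell cycle gene in each library as CPM per kb of exon on a log axis, ordered by level within each phase, with hypoxia libraries in red above control libraries in blue. Ccnd2, Cdkn1b and Cdk4 stand above the other G1 and S phase genes, and the G2 and M phase genes lie lower.

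Among the D cyclins, which start the passage through G1, Ccnd1 and Ccnd2 fell and Ccnd3 was not called. Ccnd1 (chr7:144929931-144939925, minus strand, GRCm38 as in GENCODE, used for all gene positions) had 31.7, 30.8, 37.9, 30.2 and 30.5 CPM in hypoxia 1 to 5, against 47.2, 41.5, 38.9, 48.8, 39.5 and 34.6 CPM in control 1 to 6. Hypoxia 3 was the highest of its group and passed control 6, and the other 4 hypoxia libraries lay below all controls. The means were 32.2 ± 3.24 CPM in hypoxia and 41.8 ± 5.37 CPM in control, a log2 fold change of -0.37 (SE 0.08, adjusted p = 0.00408). Of the exon bases of Ccnd1, 23.4% overlap a gene annotated as LTO1 on the other strand, and the library kit does not mark strand, so reads from that stretch cannot be told apart.

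Ccnd2 (chr6:127125162-127152193, minus strand) had 378, 404, 411, 420.0 and 436 CPM in hypoxia 1 to 5, against 466.2, 447, 437, 450.4, 450.3 and 434 CPM in control 1 to 6. The groups met only at hypoxia 5, which passed control 6. The means of 409.6 ± 21.4 CPM in hypoxia and 448 ± 11.3 CPM in control gave a log2 fold change of -0.13 (SE 0.04, adjusted p = 0.0207). That decrease of Ccnd2 is the smallest that was called, at the deepest count of the 40 genes, a mean of 11490 counts per library. The Ccnd2 call was lost without hypoxia 1 (adjusted p = 0.0516), without hypoxia 2 (0.0710) and with no filter on low counts (0.0721). Ccnd3 averaged 15.9 ± 1.30 CPM in hypoxia and 16.8 ± 2.02 CPM in control, and its 95% interval on the log2 scale ran from -0.25 to 0.09.

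The partner kinases of the D cyclins did not pass the test. Cdk4 had 61.3, 62.5, 64.1, 59.0 and 66.7 CPM in hypoxia 1 to 5, against 60.4, 70.6, 64.7, 64.4, 66.9 and 59.5 CPM in control 1 to 6, and the groups overlapped throughout. Its log2 fold change was -0.04, with a 95% interval from -0.14 to 0.06 (adjusted p = 0.618). Cdk6, the second kinase of this pair, averaged 6.19 ± 0.286 CPM in hypoxia and 6.45 ± 0.428 CPM in control, and Cdk2, the partner of the E cyclins, 4.77 ± 0.644 CPM in hypoxia and 4.87 ± 0.528 CPM in control.

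Of the E cyclins, which act with Cdk2 at the entry into S phase, Ccne2 (chr4:11191351-11204779, plus strand) fell. It had 4.61, 4.10, 5.12, 6.06 and 5.46 CPM in hypoxia 1 to 5, against 6.40, 6.82, 6.18, 6.31, 6.37 and 6.53 CPM in control 1 to 6. All hypoxia libraries of Ccne2 lay below all control libraries, with hypoxia 4 nearest to them. The log2 fold change was -0.34 (SE 0.09, adjusted p = 0.0129), and 17.4% of the exon bases of Ccne2 overlap Ints8 on the other strand. Ccne1 averaged 6.43 ± 0.851 CPM in hypoxia and 7.28 ± 0.508 CPM in control, a log2 fold change of -0.17 that was not called (adjusted p = 0.188).

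Cdkn1b (chr6:134920401-134925513, plus strand), which binds cyclin and kinase complexes and holds cells in G1, also fell. It had 83.9, 87.9, 97.4, 104 and 102 CPM in hypoxia 1 to 5, against 109, 105, 108, 111, 121 and 124 CPM in control 1 to 6. The groups did not overlap, although hypoxia 4 lay just under control 2. Means of 95.1 ± 8.83 CPM in hypoxia and 113 ± 7.75 CPM in control gave a log2 fold change of -0.25 (SE 0.06, adjusted p = 0.00655). No other annotated gene overlaps the exons of Cdkn1b or shares a 50-base stretch with them. Cdkn1c, of the same inhibitor family, had 7 to 23 counts per library, a log2 fold change of -0.51 and a 95% interval from -1.05 to 0.02, so at this depth a change could not be told from none.

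E2f1, an activating E2F factor and itself a target of E2F, averaged 14.8 ± 2.34 CPM in hypoxia and 12.9 ± 1.48 CPM in control. Its log2 fold change of 0.19 was the highest of the 40 and was not called (SE 0.10, adjusted p = 0.174), and hypoxia 5 at 18.3 CPM and control 1 at 10.3 CPM were the extremes. In the authors' deposited table E2f1 is listed as higher, with a log2 fold change of 0.26 and an adjusted p of 0.00671.

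The genes of DNA synthesis showed 1 decrease. Mcm7 (chr5:138164583-138172422, minus strand), a subunit of the replicative helicase that unwinds DNA, had 8.03, 8.09, 10.8, 9.26 and 9.13 CPM in hypoxia 1 to 5, against 11.8, 11.98, 10.9, 10.7, 11.02 and 9.64 CPM in control 1 to 6. Hypoxia 3 lay among the control libraries and the other 4 lay below all of them. The log2 fold change was -0.28 (SE 0.08, adjusted p = 0.0240), and the Mcm7 call was lost without control 2 (adjusted p = 0.0503), without hypoxia 1 (0.0641) and without hypoxia 2 (0.0868). Of the 50-base stretches of Mcm7 transcripts, 23.3% also occur in another annotated gene, and its exons partly overlap Cops6, Ap4m1, Mir25 and Mir93, so its count is uncertain.

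The other subunits of the same helicase were not called, with log2 fold changes of -0.18 for Mcm2, 0.09 for Mcm3, -0.0030 for Mcm4, -0.13 for Mcm5 and -0.0056 for Mcm6. Mcm2 passed the threshold only without control 1 (adjusted p = 0.0324) and without control 1 and hypoxia 5 together (0.0182). Summed over the 6 helicase genes the level was 73.5 ± 4.05 CPM in hypoxia and 77.2 ± 4.57 CPM in control, and the groups overlapped. Whether the change of Mcm7 differed from that of the other subunits was not tested.

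Pcna, the clamp that holds DNA polymerase on its template, had 13.03, 12.5, 13.9, 13.1 and 14.9 CPM in hypoxia 1 to 5, against 13.5, 14.4, 13.7, 14.7, 15.8 and 14.4 CPM in control 1 to 6. The groups overlapped, and its log2 fold change of -0.10 was not called (95% interval -0.23 to 0.03, adjusted p = 0.285). Rrm1 and Rrm2, the subunits of ribonucleotide reductase, and Tyms, thymidylate synthase, supply nucleotides for replication. Their log2 fold changes were -0.11 for Rrm1, -0.23 for Rrm2 and -0.06 for Tyms, none called. Rrm2 came nearest, at an adjusted p of 0.0654, and passed without control 3 (0.0349), without control 6 (0.0332) and with total counts as the scaling (0.0482). The authors' deposited table lists Rrm2 as lower, with an adjusted p of 0.0289.

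**Figure D3:**
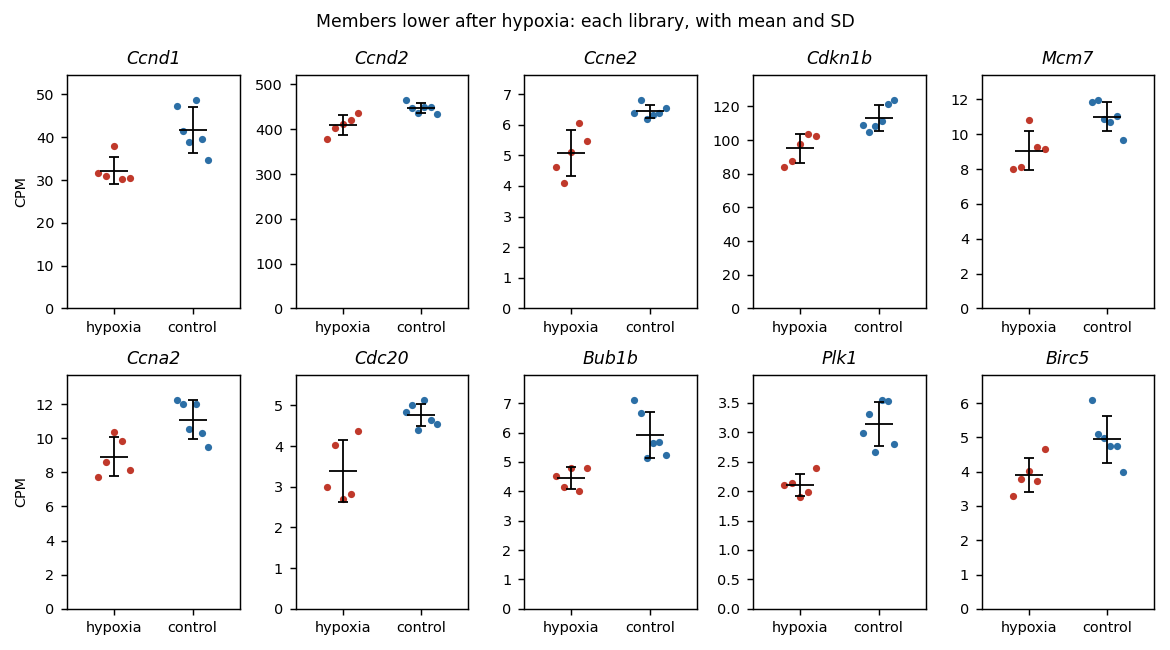
CPM of the 10 cell cycle genes that fell, each point a library, with the mean and SD as bars, hypoxia in red at left and control in blue at right of each panel. In Ccne2, Cdkn1b, Cdc20, Bub1b and Plk1 all hypoxia libraries lie below all control libraries, and in the other 5 the groups overlap.

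In G2 and M phase the largest decreases were those of Plk1, Cdc20 and Bub1b, genes of mitotic entry and exit. Plk1 is the Polo kinase, which acts on centrosomes and the spindle. Cdc20 activates the anaphase-promoting complex, the ubiquitin ligase that starts chromosome separation, and Bub1b encodes BubR1, the checkpoint protein that restrains it. Promoters of these genes are shown because the 3 were the G2 and M phase genes whose groups did not overlap, and that of Mcm7 is shown as the G1 and S phase gene that fell and holds E2F matches. Each runs 5′ to 3′ from 250 bases before to 50 bases after the start in RefSeq (GRCm38.p6), at chr7:122159185-122159484 on the plus strand for Plk1, chr4:118437294-118437593 on the minus strand for Cdc20, chr2:118597961-118598260 on the plus strand for Bub1b and chr5:138171834-138172133 on the minus strand for Mcm7. Capitals mark matches to the cell cycle homology region (CHR), the E2F motif and the CCAAT box, on either strand.
Plk1: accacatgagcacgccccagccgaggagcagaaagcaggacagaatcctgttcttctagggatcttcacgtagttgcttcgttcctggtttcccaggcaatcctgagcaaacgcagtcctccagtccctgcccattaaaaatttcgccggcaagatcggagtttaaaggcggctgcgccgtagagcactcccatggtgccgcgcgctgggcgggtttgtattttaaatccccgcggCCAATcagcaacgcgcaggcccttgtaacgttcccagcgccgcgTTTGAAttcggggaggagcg
Cdc20: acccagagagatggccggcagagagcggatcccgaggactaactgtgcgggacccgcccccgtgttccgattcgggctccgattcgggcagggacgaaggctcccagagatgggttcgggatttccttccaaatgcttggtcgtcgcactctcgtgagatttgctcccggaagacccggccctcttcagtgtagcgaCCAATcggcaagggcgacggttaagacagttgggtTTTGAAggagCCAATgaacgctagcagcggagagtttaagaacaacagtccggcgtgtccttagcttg
Bub1b: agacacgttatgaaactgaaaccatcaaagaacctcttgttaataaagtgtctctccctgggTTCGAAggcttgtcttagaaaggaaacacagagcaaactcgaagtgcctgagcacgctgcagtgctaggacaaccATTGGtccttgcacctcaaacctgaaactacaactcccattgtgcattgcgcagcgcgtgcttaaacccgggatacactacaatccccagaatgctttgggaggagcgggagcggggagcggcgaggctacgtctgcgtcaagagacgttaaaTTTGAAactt
Mcm7: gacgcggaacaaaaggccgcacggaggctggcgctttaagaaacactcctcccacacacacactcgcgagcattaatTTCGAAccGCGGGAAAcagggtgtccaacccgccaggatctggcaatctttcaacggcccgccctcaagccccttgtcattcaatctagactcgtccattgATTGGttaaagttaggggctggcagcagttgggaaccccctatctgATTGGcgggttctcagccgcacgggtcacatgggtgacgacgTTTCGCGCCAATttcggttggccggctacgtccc

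The CHR is bound by the MuvB complex, E2F motifs by E2F factors and CCAAT boxes by NF-Y, as background. The CHR was searched as TTTGAA and TTCGAA, the E2F motif as TTTGGCGC, TTTCCCGC, TTTGCCGC and TTTCGCGC, and the box as CCAAT, each on both strands. RefSeq promoters were found for 31 of the 40 genes, 33 sequences in all, and not for Ccna2, Ccne2, Tpx2, Ccnd2, Kif20a, Aurkb, Ccnd1, Cdkn1c and Mcm4. The CHR occurred in 12 of 15 G2 and M phase promoters (80%) and in 2 of 18 G1 and S phase promoters (11.1%), against 19.2% of all 32851 promoters. The E2F motif occurred in 1 of 15 G2 and M phase promoters (6.67%) and in 5 of 18 of G1 and S phase (27.8%), against 2.26% of all. The CCAAT box occurred in 14 of 15 (93.3%) and in 12 of 18 (66.7%), against 37.4% of all. Among the genes that fell the CHR was in 4 of 7 promoters, and among those not called in 10 of 26. These counts mix the phases, and their difference was not tested. Within G2 and M phase, the promoters without a CHR were those of Birc5, which fell, and of Cenpe and Ccnb1, not called. The 7 promoters belong to 6 genes, since Mcm7 has a second promoter, not shown, that held a CCAAT box alone. Birc5 held no match in this window, and in Mcm7 an E2F match and a CCAAT match overlap. A match describes these letters and is not evidence of binding.

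Plk1 (chr7:122159439-122169873, plus strand) had 2.11, 2.15, 1.89, 1.98 and 2.40 CPM in hypoxia 1 to 5, against 2.99, 3.32, 2.67, 3.55, 3.53 and 2.79 CPM in control 1 to 6. All hypoxia libraries lay below all control libraries, and hypoxia 5 was the nearest. Plk1 averaged 2.11 ± 0.193 CPM in hypoxia and 3.14 ± 0.378 CPM in control, a log2 fold change of -0.57 (SE 0.11, adjusted p = 0.00171), the largest decrease that was called among the 40. Its counts were low, 47 to 112 per library, and 10.4% of its 50-base stretches occur in another annotated gene, the pseudogene Plk-ps1 among them.

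Cdc20 (chr4:118432901-118437352, minus strand) had 2.98, 4.03, 2.70, 2.83 and 4.36 CPM in hypoxia 1 to 5, against 4.84, 5.01, 4.41, 5.14, 4.65 and 4.54 CPM in control 1 to 6. Hypoxia 2 and 5 lay close under the lowest control library and hypoxia 1, 3 and 4 well below it. Cdc20 changed by -0.48 on the log2 scale (SE 0.12, adjusted p = 0.00926). Of its 50-base stretches, 10.6% occur in another annotated gene.

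Bub1b (chr2:118598211-118641591, plus strand) had 4.52, 4.14, 4.79, 4.00 and 4.80 CPM in hypoxia 1 to 5, against 7.11, 6.67, 5.15, 5.64, 5.69 and 5.24 CPM in control 1 to 6. The groups did not overlap, and control 1 and 2 were the highest. Bub1b changed by -0.40 on the log2 scale (SE 0.10, adjusted p = 0.00857), and no other annotated gene overlaps or shares sequence with Bub1b by these measures. Bub1, the related checkpoint kinase, averaged 5.72 ± 0.861 CPM in hypoxia and 5.13 ± 0.666 CPM in control, a log2 fold change of 0.17 that was not called (95% interval -0.07 to 0.41, adjusted p = 0.304). The difference between the changes of Bub1b and Bub1 was not tested.

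Of the mitotic cyclins, Ccna2 (cyclin A2) fell and Ccnb1 and Ccnb2 were not called. Ccna2 (chr3:36564865-36572150, minus strand) had 7.72, 8.58, 10.4, 9.82 and 8.12 CPM in hypoxia 1 to 5, against 12.3, 12.02, 10.5, 12.02, 10.3 and 9.50 CPM in control 1 to 6. Hypoxia 3 and 4 lay within the control range and the other 3 below it. The log2 fold change was -0.31 (SE 0.09, adjusted p = 0.0212). The Ccna2 call was lost without control 4 (0.0530), hypoxia 1 (0.0596), hypoxia 2 (0.0634) or hypoxia 5 (0.0524), each an adjusted p, and without control 1 and hypoxia 5 together (0.0689). Of its exon bases, 12.5% overlap Exosc9 on the other strand.

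Ccnb1 averaged 2.21 ± 0.395 CPM in hypoxia and 2.94 ± 0.617 CPM in control, a log2 fold change of -0.37 (SE 0.15, adjusted p = 0.0862). It passed without hypoxia 5 (adjusted p = 0.0291) and without control 1 and hypoxia 5 together (0.0294), and 23.4% of its 50-base stretches occur in another annotated gene. Ccnb2 averaged 3.11 ± 0.354 CPM in hypoxia and 3.58 ± 0.385 CPM in control, a log2 fold change of -0.19. Cdk1, the kinase that these cyclins activate, had 5.92, 6.78, 7.66, 6.67 and 6.54 CPM in hypoxia 1 to 5, against 9.03, 7.85, 5.95, 8.46, 8.82 and 7.72 CPM in control 1 to 6. All hypoxia values of Cdk1 lay below the control mean, but control 3 was close to the lowest of them. Its log2 fold change of -0.24 was not called (SE 0.10, adjusted p = 0.103), and passed without control 3 (0.0150).

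Mki67, the gene of the proliferation antigen Ki-67, had 27.9, 32.2, 32.8, 29.2 and 28.0 CPM in hypoxia 1 to 5, against 39.6, 42.1, 31.5, 34.7, 30.4 and 29.5 CPM in control 1 to 6. Control 1, 2 and 4 lay above all hypoxia libraries, and control 3, 5 and 6 lay among them. The log2 fold change of -0.20 was not called (SE 0.09, 95% interval -0.39 to -0.02, adjusted p = 0.108). Top2a had 32.8, 36.2, 43.9, 37.1 and 39.1 CPM in hypoxia 1 to 5, against 45.7, 47.3, 35.8, 38.2, 39.6 and 36.3 CPM in control 1 to 6. Control 1 and 2 were again the highest, and the groups overlapped. Its log2 fold change of -0.09 was not called (95% interval -0.26 to 0.08, adjusted p = 0.460).

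Birc5, or survivin (chr11:117849251-117855743, plus strand), belongs with Aurkb to the complex that corrects chromosome attachment. It had 3.29, 3.80, 4.03, 3.72 and 4.68 CPM in hypoxia 1 to 5, against 6.10, 5.09, 4.99, 4.76, 4.75 and 3.98 CPM in control 1 to 6. Control 1 was the highest, and hypoxia 3 and 5 passed control 6. The log2 fold change was -0.32 (SE 0.11, adjusted p = 0.0481), just inside the threshold. The Birc5 call held in 8 of 21 alternatives, and leaving out 1 library at a time ended it in every case except control 6 and hypoxia 5, with adjusted p-values of 0.0925, 0.0821, 0.0811, 0.0675 and 0.0686 without control 1 to 5 and of 0.115, 0.108, 0.0746 and 0.0978 without hypoxia 1 to 4. It was also lost with DESeq2 (0.0588), limma-voom (0.0584), another scaling (RLE factors) and no filter on low counts.

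The remaining genes of mitosis were not called. Cenpf, a kinetochore and nuclear matrix protein, had 12.7, 15.6, 16.9, 15.6 and 14.3 CPM in hypoxia 1 to 5, against 17.2, 16.1, 14.0, 16.4, 15.2 and 14.8 CPM in control 1 to 6, overlapping groups with a log2 fold change of -0.05 (adjusted p = 0.664). Tpx2, which activates Aurora A on spindle microtubules, had 13.5, 14.0, 15.1, 13.9 and 16.9 CPM in hypoxia 1 to 5, against 15.1, 15.7, 14.4, 16.6, 17.4 and 14.8 CPM in control 1 to 6, also overlapping. The Aurora kinases Aurka and Aurkb had log2 fold changes of -0.06 and -0.11. The spindle and midbody motors Kif11 and Kif20a had -0.16 and -0.21, and the kinetochore motor Cenpe had 0.07. Ube2c, the ubiquitin-conjugating enzyme of the anaphase-promoting complex, had -0.25. Of the exon bases of Cdkn1c, Kif20a, Ube2c and Cdk4, 30.7%, 29.3%, 22.8% and 19.7% overlap genes on the other strand, and 19.1% of the 50-base stretches of Pcna occur in a pseudogene, so these counts are uncertain too. Over all 30 genes not called, the adjusted p ran from 0.0653 to 0.982 and the 95% interval included 0 in 25, so intervals reaching from -1.05 (Cdkn1c) to 0.41 (Bub1) on the log2 scale bound what these libraries could show.

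Summed over its 21 genes, the G1 and S phase level was 728, 773, 807, 799.8 and 832 CPM in hypoxia 1 to 5, against 883, 875, 839.9, 871, 881 and 846 CPM in control 1 to 6. The groups did not overlap, with means of 788 ± 39.4 CPM in hypoxia and 866 ± 18.5 CPM in control. Ccnd2 made up 52.0% of this sum in hypoxia and 51.7% in control. Without Ccnd2 the sums still did not overlap, 350.6 to 396 CPM in hypoxia and 402 to 431 CPM in control. Cdkn1b, itself called lower, was the most abundant gene left, at 95.1 CPM in hypoxia and 113 CPM in control. With Cdkn1b taken out as well the groups overlapped, since hypoxia 3 then lay above control 3 and control 6. These sums weigh abundant genes most and do not show a decrease in each gene. The G2 and M phase sum over 19 genes was 154, 178, 189.9, 169.9 and 177 CPM in hypoxia 1 to 5, against 212, 217, 176, 195, 190.4 and 173 CPM in control 1 to 6. These groups overlapped, with means of 174 ± 13.2 CPM in hypoxia and 194 ± 18.1 CPM in control.

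Hypoxia 1 was the lowest hypoxia library in 14 of the 19 G2 and M phase genes and in 10 of the 21 G1 and S phase genes, and hypoxia 4 in 3 of the 19 and 7 of the 21. Control 2 was the highest control library in 7 of the 19 and 7 of the 21, and control 1 in 7 of the 19 and 4 of the 21. Control 6 was the lowest in 9 of the 19 and 8 of the 21. Whether these counts differ between the phases was not tested. The counts of genes that fell depended on hypoxia 1 and hypoxia 2, since without either of them 6 of the 40 fell, 3 in each phase. Calls over all genes tested also became fewer, with 10.9% lower without hypoxia 1 and 9.17% without hypoxia 2, against 12.8% with all libraries.

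Other genes of the cycle were read from lists. Of 93 more genes on lists of G1 control, DNA replication, and G2 and mitosis, 21 fell (22.6%) and 2 rose (2.15%), beside 12.8% lower and 10.1% higher among all genes tested, and their median log2 fold change was -0.13. In the G2 and mitosis list 11 of 41 fell and 0 rose, in G1 control 6 of 24 fell and 1 rose, and in DNA replication 4 of 28 fell (14.3%), near the share of all genes, and 1 rose. The DNA replication genes summed to 224.3 ± 5.22 CPM in hypoxia and 224.8 ± 7.34 CPM in control. Slbp, which rose, averaged 28.0 CPM of this sum in hypoxia and 21.4 CPM in control. The median log2 fold change of the 28 was -0.08, negative in 18 and positive in 10. At an unadjusted p under 0.05, 16 of the 41 G2 and mitosis genes were lower and 0 higher, beside 3179 and 2476 of all 16235 genes tested. DESeq2 and limma-voom called the same 2 of the 93 higher.

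The 2 that rose were Cdkn1a and Slbp. Cdkn1a, the inhibitor p21 and a relative of Cdkn1b, averaged 47.4 ± 4.87 CPM in hypoxia and 35.6 ± 1.76 CPM in control, a log2 fold change of 0.41 (adjusted p = 0.000135). Slbp, which binds the stem-loop of histone mRNAs, averaged 28.0 ± 1.37 CPM in hypoxia and 21.4 ± 1.65 CPM in control, a log2 fold change of 0.39 (adjusted p = 0.000135). Both had all hypoxia libraries above all control libraries.

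Among those that fell, Tfdp1 and Tfdp2 encode the DP partners of E2F factors, with log2 fold changes of -0.29 and -0.50, and E2f3 had -0.24. Espl1, separase, which cuts the ring that holds sister chromatids, averaged 2.91 ± 0.277 CPM in hypoxia and 4.72 ± 0.459 CPM in control, a log2 fold change of -0.69 (adjusted p = 0.000111). Tk1, thymidine kinase, had -0.53, Cdc25b, the phosphatase that activates Cdk1, had -0.50, the chromosome motor Kif22 had -0.44 and Incenp, the scaffold of the complex that holds Birc5, had -0.27. These 10 genes have the smallest p-values of the 93, and each was called under all 21 alternatives.

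The markers of cell types in the culture were read in the same libraries, as lists chosen with earlier results known. Neuron markers summed to 10308 to 10897 CPM in hypoxia and 9929 to 10717 CPM in control, with 2 of 12 higher and 0 lower. Astrocyte markers summed to 3334 to 3627 CPM in hypoxia and 3366 to 3642 CPM in control, with 1 of 10 lower. The neuron calls (Syn1 and Neurod6) and the astrocyte call (Aqp4) were lost without single libraries, with adjusted p-values up to 0.0632, 0.0538 and 0.0774, and the 3 genes were named after their values were seen. Fibroblast and meningeal markers ran from 505 to 719 CPM in hypoxia, highest in hypoxia 5, and from 490.2 to 581 CPM in control, with 1 of 10 higher. Thy1 alone, not called, averaged 274 of the mean 569 CPM of this list in hypoxia and 267 of 539 CPM in control. Microglial markers stayed between 24.6 and 29.1 CPM in all libraries, with 0 of 7 tested called, and Trem2, Itgam and P2ry12 were near 0. Endothelial and mural markers ran from 43.7 to 53.8 CPM in hypoxia and from 42.2 to 48.7 CPM in control, with 1 of 7 tested higher and Cldn5, Tek and Kcnj8 near 0. Most of this sum came from Pdgfrb, the gene called higher (21.4 CPM in hypoxia, 14.5 CPM in control), and Kdr, not called (20.5 and 23.7 CPM). Both were named after their values were seen. Of all genes tested, 10.1% were higher and 12.8% lower.

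Some markers of progenitor and oligodendrocyte lineage cells, which can divide, also fell, beside 12.8% of all genes tested. Of 9 neural progenitor markers, 5 fell, and the sum, in overlapping groups, was 1478 to 1641 CPM in hypoxia and 1560.2 to 1728 CPM in control. Dcx alone averaged 1053 of the mean 1564 CPM in hypoxia and 1021 of 1596 CPM in control, so this sum mostly follows Dcx. Named after their values were seen, the 5 that fell were Sox2, Pax6, Hes5, Fabp7 and Hopx. The calls of Fabp7 and Hopx were lost without single libraries, with adjusted p-values up to 0.113 and 0.0737. The other 4 were not called, with log2 fold changes of 0.13 for Nes, 0.12 for Prom1, 0.05 for Dcx and -0.21 for Eomes. Of 9 oligodendrocyte lineage markers tested, 3 fell (Olig1, Olig2 and Mog, likewise named afterwards), and the sum over 10 was 96.8 to 127 CPM in hypoxia and 114 to 160.1 CPM in control, with Mag near 0. Of the 6 tested and not called, Gpr17 (0.26) and Mbp (0.11) had positive log2 fold changes. The call of Olig2 was lost without single libraries, with adjusted p-values up to 0.113. The part of these markers in the decreases of the cell cycle genes was not tested, and the cells that hold the transcripts were not measured.

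**Figure D4:**
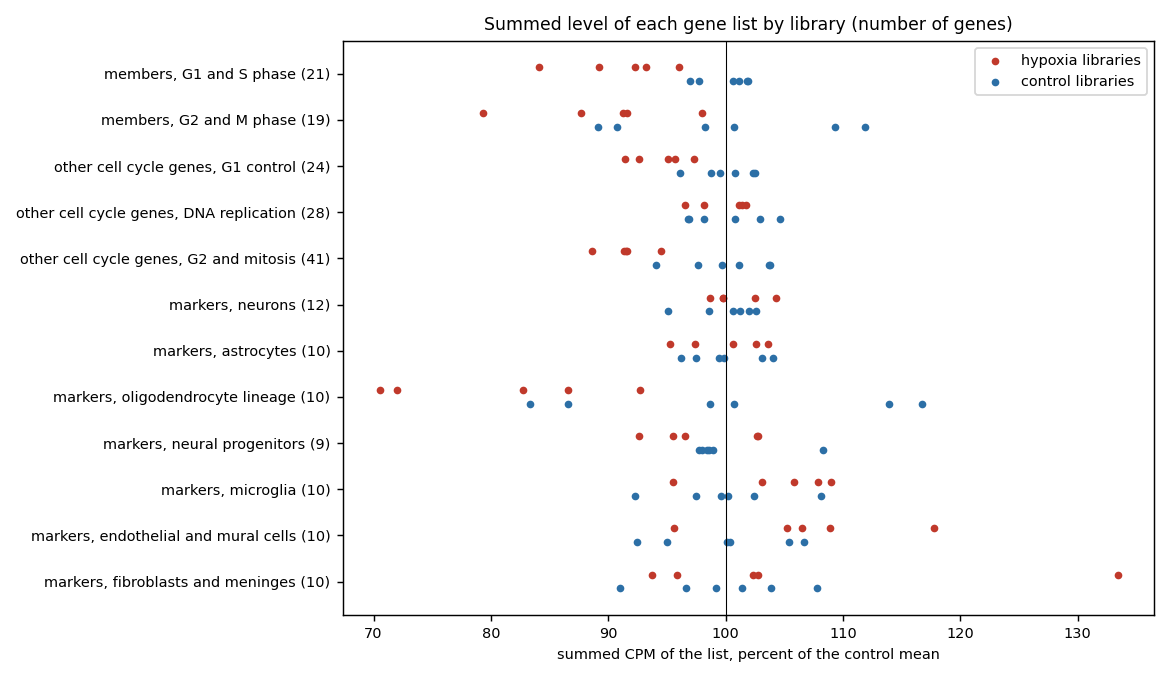
Summed CPM of each gene list in each library as a percent of the control mean, hypoxia in red above control in blue, with the number of genes in parentheses. The G1 and S phase sums of the hypoxia libraries lie at 84.1 to 96.0 percent, below all control libraries, while neuron and astrocyte markers lie between 95.1 and 104 percent in both groups.

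The authors' deposited table lists 11 of the 40 genes as lower, the 10 named above and Rrm2, and 1 as higher, E2f1. Its largest decrease among the 40 is that of Plk1, with a log2 fold change of -0.55 and an adjusted p of 0.00223.

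Under the 21 alternative settings, Ccnd1, Ccne2, Cdkn1b, Cdc20, Bub1b and Plk1 were called in all 21. Ccnd2 and Mcm7 were called in 18, Ccna2 in 16 and Birc5 in 8. No cell cycle gene that was called under any setting had the opposite sign there.

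**Figure D5:**
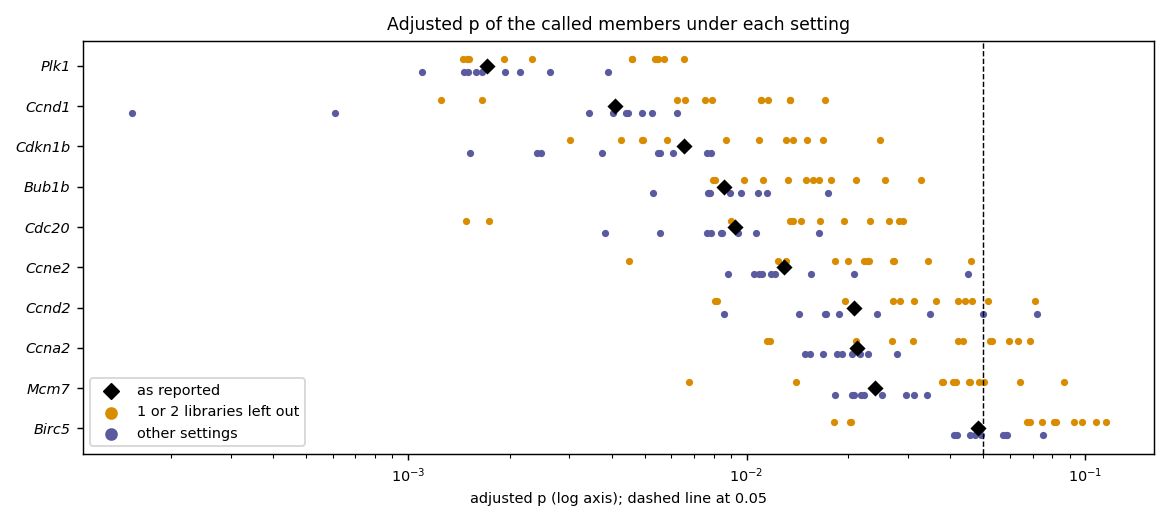
Adjusted p of each of the 10 genes that fell, on a log axis, as reported (diamonds), with 1 or 2 libraries left out (orange) and under the other settings (violet), with a dashed line at 0.05. Plk1 stays left of the line throughout, and Birc5 lies on both sides of it.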

How the data were processed

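RNA was read in 5 hypoxia and 6 control libraries. The authors deposited raw read counts per Ensembl gene ID, whole numbers with no normalization. FastQC 0.11.5, STAR 2.5.2b, featureCounts, Subread 1.5.1, DESeq2 and build mm10 are named in the submitters' processing notes. Strand setting and multi-mapping rule: not given in the sources used here. The authors also deposited tables of their comparison which, per the file headers, hold log2 fold changes, adjusted p-values and a normalized signal per library. The signal was not used.

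Genes were filtered with filterByExpr by group, scaled with TMM factors and tested with the quasi-likelihood F test of edgeR 4.0.16 (R 4.3.3), 2-sided, with no covariate. Benjamini-Hochberg adjustment ran over all 16235 genes tested, and an adjusted p under 0.05 was a call. Of all counts, 99.9% lay in these genes. CPM uses TMM-scaled library sizes. DESeq2 1.42.0, limma-voom (limma 3.58.1), other scalings and filters and left-out libraries were alternatives. The test was tried on simulated data with known changes, where the mark for passing was changed after the first result was seen. No statement here rests on that trial.

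Values in every library are given for every gene called, for the 3 genes of highest CPM in each phase and for Mki67, Top2a, Cdk1, Pcna and Cdkn1b. Of other cell cycle genes the 10 of smallest p are named. The members and lists were chosen with earlier results of these data known. A marker gene is not reported here and was left out of its list. Replicate pairs of a group differed by 2.31 to 26.3 chi-square per degree of freedom, so no library was counted as a copy of another.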

Additional observations from a re-analysis of the deposited data

Results flagged for a closer look

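In 2 of 80 groups of libraries examined (40 genes in hypoxia and in control), 1 library lay apart from the rest of its group, and chance does so in about 1 group in 20. For Ccnd1, hypoxia 3 had 37.9 CPM, where the other 4 hypoxia libraries had 30.2 to 31.7 CPM. For Mcm3, hypoxia 1 had 8.82 CPM, where the other 4 hypoxia libraries had 11.2 to 11.7 CPM.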

How the results depend on the processing

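Over the 40 genes and 21 alternatives, 806 values kept their side of the threshold, 24 lost the call and 9 gained it, and none that was called changed sign. The count of genes that fell, 10 as reported, ran from 6 to 11 when 1 library at a time was left out, and was 6 without hypoxia 1 or hypoxia 2. In those 2 settings 10.9% and 9.17% of all genes tested were lower, against 12.8% as reported. In G1 and S phase this count ran from 3 to 6 and in G2 and M phase from 3 to 5, with 3 in G2 and M phase also without control 4. No cell cycle gene was called higher under any alternative, and the count of the other 93 genes that fell ran from 16 to 22. Scalings moved the median log2 fold change of all genes by at most 0.02, and the share of higher among all calls was 44.2% as reported, 38.4% with total counts and 53.0% with DESeq2. With no filter on low counts 32988 genes were tested.

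Replicate numbers were shared between the groups, but the deviations of same-numbered libraries correlated at -0.10, 0.14, -0.06, -0.06 and 0.31. The numbers were therefore not used as pairs in the reported test, although these correlations do not exclude pairing. With the number as a replicate block, 11 genes fell, the 10 reported and Mki67 (adjusted p = 0.0447). Counts of 47 to 112 per library limit what Plk1 can show, and of 7 to 23 what Cdkn1c can show.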
